A study of Mus musculus with 9 samples.

Results

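The transcription factors that specify mesodiencephalic dopaminergic (mdDA) neurons were followed through RNA sequencing of embryonic mouse midbrains that carried none, 1 or 2 copies of a targeted *Nkx2.9* allele. The 7 genes *Nr4a2*, *Pitx3*, *Lmx1a*, *Lmx1b*, *Foxa1*, *Foxa2* and *Msx1* were taken by name from the 51912 genes of the deposited table, and all 7 were found. Midbrains were dissected at E14.5 from C57Bl/6 embryos that were wild type (*Nkx2.9*+/+), heterozygous (*Nkx2.9*LacZ/+) or homozygous (*Nkx2.9*LacZ/LacZ), with 3 libraries per genotype and 2 midbrains pooled in each library. In the targeted allele LacZ replaces exon 1, in all cells of the embryo. The tissue is midbrain by the sample labels and the methods, but cortical by the series title.

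The 7 factors act at successive steps of mdDA development. *Lmx1a*, *Lmx1b* and *Msx1* (homeodomain proteins) and *Foxa1* and *Foxa2* (forkhead proteins) act in the floor plate, where the progenitors of these neurons divide. *Nr4a2*, also called *Nurr1*, is an orphan nuclear receptor that switches on the enzymes and transporters of dopamine in postmitotic neurons, and *Pitx3*, a homeodomain protein, is needed for the neurons of the substantia nigra. *Nkx2.9* is a homeobox gene of the ventral neural tube, and the genotypes were sequenced to ask how its loss alters the programming of the midbrain.

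Of the 7 factors, *Pitx3* alone was lower in every library labelled *Nkx2.9*LacZ/LacZ than in each wild-type one, with 0.620 times the mean level. The groups of 9.52% of all genes did not overlap in this comparison. The *Pitx3* difference had an unadjusted p under 0.05, as did 2.6% of all genes, but did not pass adjustment over all genes. The other 6 factors had 95% intervals that included no difference in every comparison of genotypes.

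Each library held 1692963 to 5942192 reads on genes. In the order of the table, libraries 1 to 3 are labelled *Nkx2.9*LacZ/LacZ, 4 to 6 *Nkx2.9*LacZ/+ and 7 to 9 *Nkx2.9*+/+, and library 7 was the shallowest. The targeted gene, *Nkx2-9*, had 28 reads in all. Libraries 1 to 3 gave 4, 6 and 3 of these reads, libraries 4 to 6 gave 0, 7 and 4, and libraries 7 to 9 gave 0, 2 and 2. These reads thus did not check the labels: their mean level was highest where both alleles were targeted, the allele keeps the sequence after exon 1, and the position of the reads within the gene is unknown. Genotypes below are those of the labels, which are in doubt, and each difference between *Nkx2.9*LacZ/LacZ and *Nkx2.9*+/+ would change its sign if those columns were exchanged. The midbrain genes *En1*, *En2* and *Otx2* had at least 90 reads in each library.

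The promoter of *Pitx3* is shown first because the differences below turn on that gene. Those of *Foxa1* and *Nr4a2* follow because they alone, beside an alternative start of *Foxa2*, held one of the motifs searched. The RefSeq promoter table (GRCm38.p6) held 9 start sites for the 7 genes, and each sequence gives the 250 bases before the start, read 5′ to 3′ on the strand of the gene. Capitals mark a match.
Pitx3, chr19:46148326-46148575, minus strand: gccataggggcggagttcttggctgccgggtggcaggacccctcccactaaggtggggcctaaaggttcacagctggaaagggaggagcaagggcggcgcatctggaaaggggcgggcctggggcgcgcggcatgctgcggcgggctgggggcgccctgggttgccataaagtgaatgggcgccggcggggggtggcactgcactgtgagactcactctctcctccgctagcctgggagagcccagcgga
Foxa1, chr12:57546112-57546361, minus strand: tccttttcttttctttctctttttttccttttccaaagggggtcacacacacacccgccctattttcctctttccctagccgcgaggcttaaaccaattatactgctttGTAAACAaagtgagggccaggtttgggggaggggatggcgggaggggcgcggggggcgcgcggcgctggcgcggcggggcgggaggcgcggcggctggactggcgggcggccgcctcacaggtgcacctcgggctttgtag
Nr4a2, chr2:57124004-57124253, minus strand: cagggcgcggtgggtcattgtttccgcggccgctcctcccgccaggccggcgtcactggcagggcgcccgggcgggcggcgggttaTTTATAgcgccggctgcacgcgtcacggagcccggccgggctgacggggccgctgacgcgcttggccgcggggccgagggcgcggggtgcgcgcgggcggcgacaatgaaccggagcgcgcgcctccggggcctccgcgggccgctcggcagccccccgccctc

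The letters searched, on both strands, were TGTTTAC for forkhead proteins, TAATTA and TAATCC for homeodomain proteins, AAAGGTCA for *Nr4a2* and its relatives and TATAAA for a TATA box. The *Foxa1* promoter held the forkhead letters on the opposite strand, starting 141 bases before the start, and 3.17% of all 32851 promoters of the same length held them. In the *Nr4a2* promoter the TATA letters lay on the opposite strand 164 bases before the start, and 12.4% of promoters held these letters. The share of promoters with a match was 4.84% for TAATTA, 6.25% for TAATCC and 1.34% for AAAGGTCA. No letters searched were found in the windows of *Pitx3*, *Lmx1a*, *Lmx1b* and *Msx1*. The starts used for *Lmx1b* and *Msx1* lie outside the genes as annotated in GENCODE M21, and no transcript there held the bases that follow them. The G and C content of the 9 windows ran from 50.8% to 80% beside a median of 52.4% over all promoters, and *Nr4a2* had the highest.

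The genes lie on 5 chromosomes of GRCm38. *Nr4a2* (chr2:57106830-57124003), *Lmx1b* (chr2:33560965-33640511) and *Foxa2* (chr2:148042877-148046969) share chromosome 2. *Foxa1* (chr12:57540628-57546916) lies on the chromosome of *Nkx2-9*, 927 kb away. *Pitx3* (chr19:46135685-46148326) shares 10 exon bases with *Elovl3*, an enzyme of fatty acid elongation, which had 13 reads in all and at most 4 in a library. *Lmx1a* (chr1:167689237-167848741) and *Msx1* (chr5:37820485-37824583) overlap no annotated gene.

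To compare the factors with each other, normalized counts (reads divided by a size factor per library) were divided by the exon length of each gene. *Nr4a2* had the highest level, 83.0 ± 11.7 normalized counts per kb (SD, n = 9 libraries). It was followed by *Foxa2* at 38.1 ± 6.94, *Foxa1* at 30.1 ± 6.48, *Lmx1a* at 29.0 ± 6.91, *Lmx1b* at 25.9 ± 4.87 and *Pitx3* at 18.8 ± 4.99. *Msx1* was lowest, at 2.9 ± 1.34. Among the 16951 genes ranked by this measure, *Nr4a2* stood at percentile 86.0, *Pitx3* at 47.9 and *Msx1* at 8.54, so the factors spanned from the upper part of the expressed genes to near the floor.

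**Figure D1:**
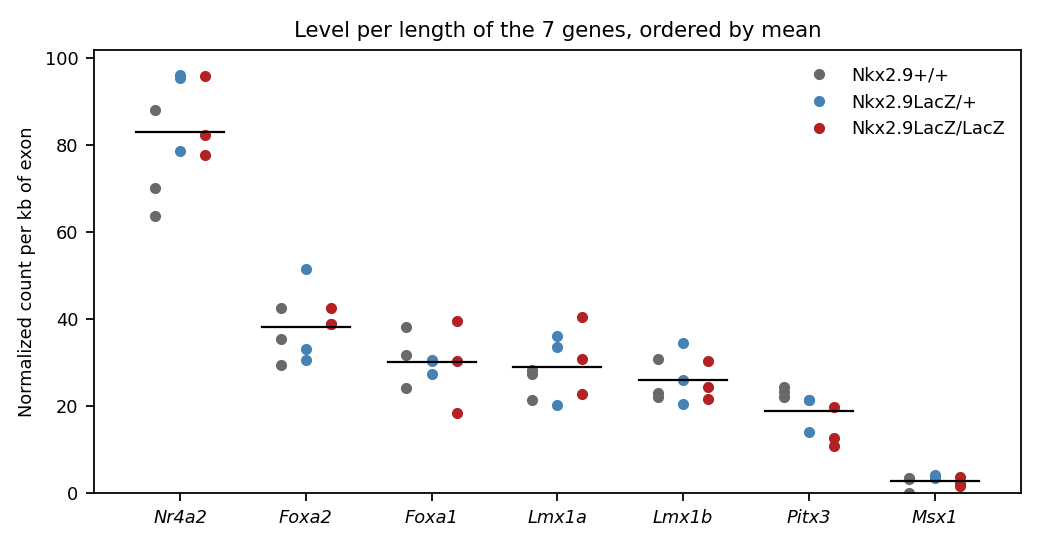
Normalized counts per kb of exon for the 7 factors, ordered by their mean over 9 libraries. Points are libraries coloured by genotype and lines are means. *Nr4a2* stands above the other 6 genes in every library, the 4 genes from *Foxa2* to *Lmx1b* overlap, and *Msx1* lies near 0.

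Neighbours in this order were compared within libraries by a two-sided exact sign-flip test with adjustment over 6 pairs. *Nr4a2* was above *Foxa2* in 9 of 9 libraries (adjusted exact p = 0.0117), *Lmx1b* above *Pitx3* in 7 of 9 (0.0313) and *Pitx3* above *Msx1* in 9 of 9 (0.0117). The levels of *Foxa2* and *Foxa1* (adjusted exact p = 0.0879), of *Foxa1* and *Lmx1a* (0.699) and of *Lmx1a* and *Lmx1b* (0.23) did not differ beyond their spread. Both libraries in which *Pitx3* was above *Lmx1b*, 8 and 9, are wild type, with 24.4 against 23.0 and 23.2 against 22.0 normalized counts per kb. Of the 6 pairs, 3 were separated with all libraries, 2 without library 1, 2, 3, 4 or 6, and 4 without library 5 or 7, where *Lmx1a* came before *Foxa1*.

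*Pitx3* had 33.6, 37.2 and 35.3 normalized counts in the *Nkx2.9*+/+ libraries, 32.6, 21.3 and 32.6 in the *Nkx2.9*LacZ/+ libraries and 16.6, 19.2 and 30.1 in the *Nkx2.9*LacZ/LacZ libraries. The wild-type libraries lay close together and above the other 6, while the heterozygous and homozygous libraries overlapped. The means were 35.4 ± 1.79 (SD, n = 3), 28.9 ± 6.51 and 21.9 ± 7.15. These levels rest on few reads, from 13 in library 7 to 53 in library 8, and the 33.6 of library 7 has a counting interval (95%, exact Poisson, counting error only) from 17.9 to 57.5. The spread of *Pitx3* between libraries of one genotype was 1.16 times what counting alone gives, against 2.51 times for *Foxa1*.

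Between *Nkx2.9*LacZ/LacZ and *Nkx2.9*+/+ the log2 fold change of *Pitx3* on log2(normalized count + 1) was −0.71 (SE 0.30, 95% interval −1.36 to −0.06, limma, unadjusted p = 0.0341). Its p adjusted over the 16993 genes tested was 1. It was the only one of 7 factors with an unadjusted p under 0.05, which 2.6% of all genes had (1.22% with a lower and 1.38% with a higher level). It was also the only one whose groups did not overlap, as for 9.52% of all genes (4.43% with a lower and 5.08% with a higher level). An exact permutation test of 3 libraries against 3 gave p = 0.1, the smallest this design allows. In bulk tissue, fewer cells that express *Pitx3* and less *Pitx3* RNA per cell cannot be told apart.

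The heterozygous *Pitx3* mean lay between those of the other genotypes. The log2 fold change was −0.31 (SE 0.30, unadjusted p = 0.326, limma) for *Nkx2.9*LacZ/+ against *Nkx2.9*+/+ and −0.40 (SE 0.30, unadjusted p = 0.21, limma) for *Nkx2.9*LacZ/LacZ against *Nkx2.9*LacZ/+, with adjusted p of 1 and 0.999. The first ran from −0.41 without library 6 to −0.11 without library 5. The second ran from −0.64 without library 3 to −0.23 without library 1. Over the 9 libraries, *Pitx3* changed by −0.35 log2 units per LacZ allele (two-sided exact permutation p = 0.025, smallest possible 0.00119), and 3.44% of all genes had such a p under 0.05, 1.58% with a falling level. Adjusted over all genes this p was 1, and the unadjusted p was over 0.05 without library 1, 2, 7, 8 or 9. The exact permutation p for any difference among the 3 genotypes was 0.0393 for *Pitx3*, with 3.3% of all genes under 0.05, and 0.246 to 0.932 for the other 6. The limma F test of the same question gave *Pitx3* an unadjusted p of 0.0977 (adjusted p = 1), which did not pass. *Pitx3* kept the exact p under 0.05 when library 3 or 5 was left out and lost it when any other was.

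**Figure D2:**
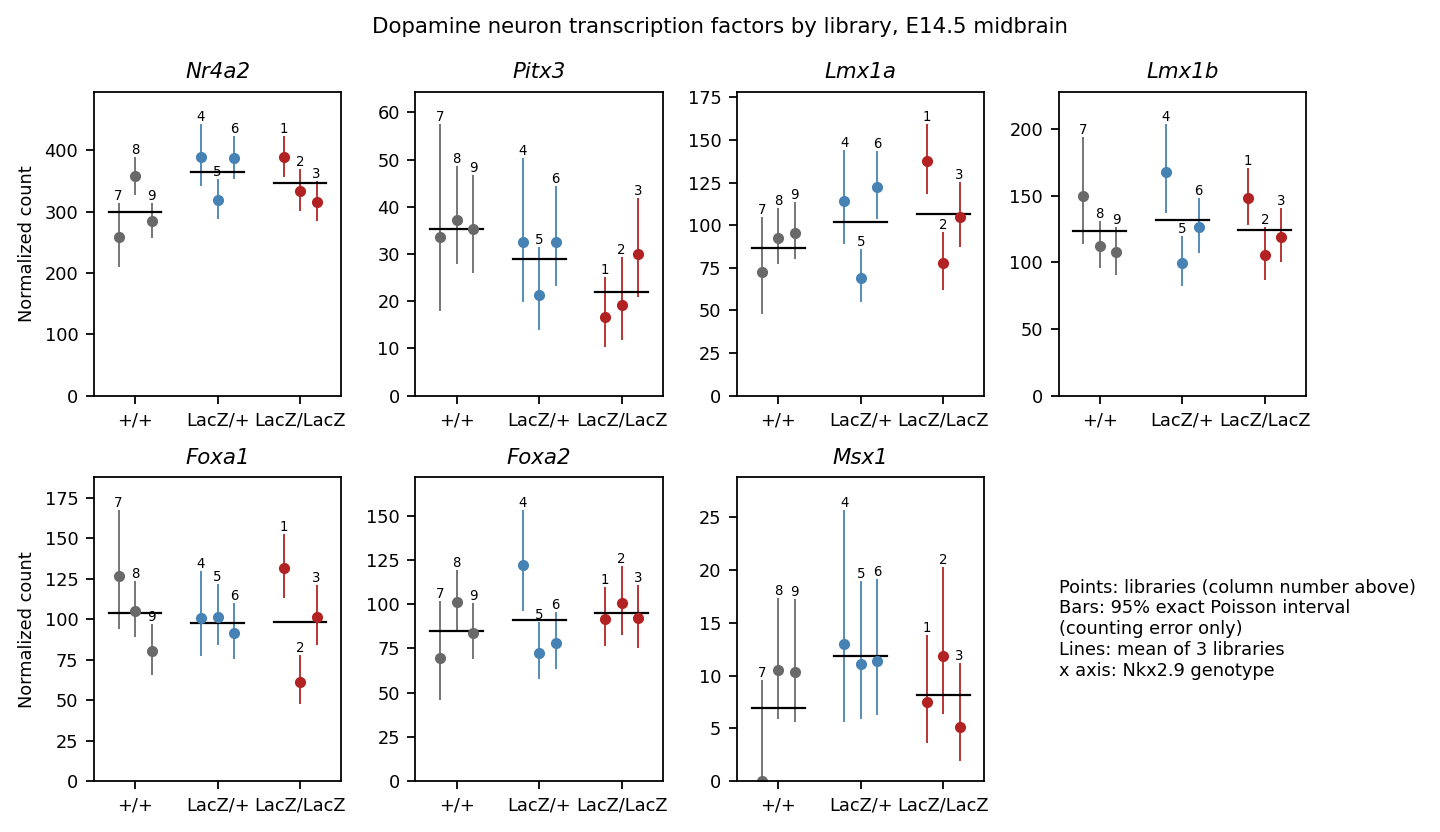
Normalized counts of the 7 factors in each library by *Nkx2.9* genotype, each panel starting at 0. Points are libraries with their number, bars are 95% exact Poisson intervals for counting error and black lines are genotype means. *Pitx3* lies at 33.6 to 37.2 in *Nkx2.9*+/+ and at 16.6 to 30.1 in *Nkx2.9*LacZ/LacZ, and the other 6 factors overlap between these genotypes.

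The *Pitx3* difference kept its sign in all 19 alternative settings, from −0.95 without library 3 to −0.54 without library 1, and its unadjusted p was under 0.05 in 13 of them. It did not pass with upper-quartile scaling (−0.59, unadjusted p = 0.0907, limma), with DESeq2 (−0.71, unadjusted p = 0.0545, where 1.86% of all genes were under 0.05) or without library 1, 2, 8 or 9 (unadjusted p = 0.13, 0.0883, 0.0815 and 0.0668, limma). It passed with edgeR (−0.70, unadjusted p = 0.0384, where 2.48% of all genes did). *Xist*, the RNA that coats the inactive X chromosome, had 4607 to 5182 normalized counts in the *Nkx2.9*LacZ/LacZ libraries, 15 to 2929 in *Nkx2.9*LacZ/+ and 47.1 to 4342 in *Nkx2.9*+/+. With log2 *Xist* as a covariate the fold change of *Pitx3* was −0.80 (unadjusted p = 0.0327, limma). Because all 3 *Nkx2.9*LacZ/LacZ libraries were high in *Xist*, sex and this genotype cannot be fully told apart.

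**Figure D3:**
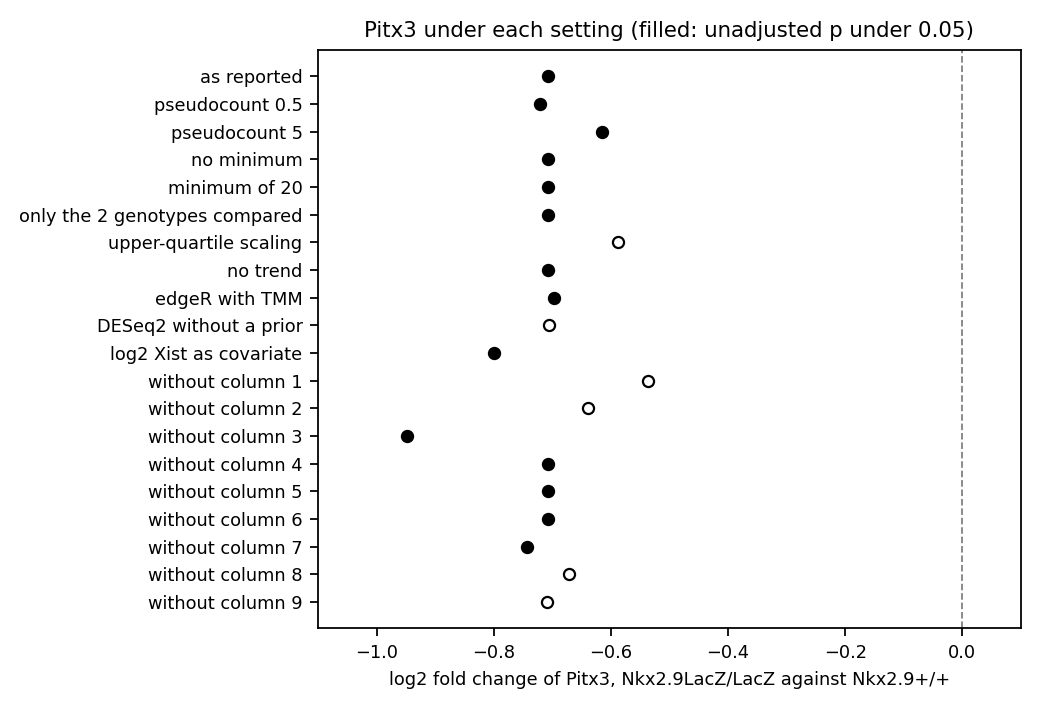
Log2 fold change of *Pitx3* in *Nkx2.9*LacZ/LacZ against *Nkx2.9*+/+ as reported and under 19 other settings, where columns are the library numbers. Filled points have an unadjusted p under 0.05. All points lie below 0, between −0.95 and −0.54.

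*Nr4a2* had 259, 357 and 284 normalized counts in *Nkx2.9*+/+, 389.5, 318 and 387 in *Nkx2.9*LacZ/+ and 388, 334 and 315 in *Nkx2.9*LacZ/LacZ. Library 7 was lowest, and the wild-type library 8 lay among the mutants, so the groups overlapped. The log2 fold change was 0.21 (95% interval −0.10 to 0.53, unadjusted p = 0.175, limma) in *Nkx2.9*LacZ/LacZ and 0.29 (−0.03 to 0.61, unadjusted p = 0.0711, limma) in *Nkx2.9*LacZ/+, both against *Nkx2.9*+/+. Both intervals were narrower than those of *Pitx3*, and they end at ratios of 1.44 and 1.52.

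*Pitx3* and *Nr4a2*, both factors of postmitotic mdDA neurons, were also set against each other within each library, on log2(normalized count + 1). The log2 ratio of *Pitx3* to *Nr4a2* was −3.04 ± 0.17 (SD, n = 3) in *Nkx2.9*+/+, −3.64 ± 0.18 in *Nkx2.9*LacZ/+ and −3.96 ± 0.57 in *Nkx2.9*LacZ/LacZ. The exact permutation p for any difference was 0.0536, or 0.214 adjusted over the 4 ratios tested, and the unadjusted exact p of its trend over alleles was 0.0131. Without library 3 the p for any difference was 0.00357, the only one of 11 alternatives in which this ratio passed after adjustment. The ratios *Lmx1a* to *Lmx1b*, *Foxa1* to *Foxa2* and *Msx1* to *Lmx1a* had exact permutation p from 0.575 to 0.789.

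*Lmx1a*, which drives progenitors toward the mdDA fate, had 72.4, 92.6 and 95.7 normalized counts in *Nkx2.9*+/+, 114, 69.2 and 122 in *Nkx2.9*LacZ/+ and 138, 77.7 and 105 in *Nkx2.9*LacZ/LacZ. For *Lmx1b*, its relative that also acts in the isthmic organizer, the values were 150.0, 112 and 107, then 168, 99.9 and 126, then 148, 105 and 119, in the same order. Both genes overlapped between all genotypes, and libraries 2 and 5 were the lowest of their genotype for both. The log2 fold changes of *Nkx2.9*LacZ/LacZ over *Nkx2.9*+/+ were 0.27 (95% interval −0.26 to 0.79) for *Lmx1a* and 0.01 (−0.43 to 0.46) for *Lmx1b*. That of *Lmx1a* was 0.065 without library 1 and 0.47 without library 2.

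*Foxa1* had 127, 105 and 80.2 normalized counts in *Nkx2.9*+/+, 101, 102 and 91.4 in *Nkx2.9*LacZ/+ and 132, 61.3 and 101 in *Nkx2.9*LacZ/LacZ. *Foxa2*, the other forkhead factor of the floor plate, had 69.8, 101 and 83.9, then 122, 72.6 and 78.3, then 91.8, 101 and 91.9. *Foxa1* had both its highest and its lowest value among the homozygous libraries, and *Foxa2* had both of its extremes outside them. The log2 fold changes of *Nkx2.9*LacZ/LacZ over *Nkx2.9*+/+ were −0.13 (95% interval −0.65 to 0.40) for *Foxa1* and 0.17 (−0.29 to 0.63) for *Foxa2*. For *Foxa1* the sign turned without library 2 (0.17) or 7 (0.03). The value of *Foxa2* was 0.040 without library 7 and 0.30 without library 8.

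*Msx1*, a repressor of other fates in mdDA progenitors, was near the limit of detection, with 93 reads in all. It had 0, 10.5 and 10.3 normalized counts in *Nkx2.9*+/+, 13.0, 11.1 and 11.4 in *Nkx2.9*LacZ/+ and 7.53, 11.9 and 5.15 in *Nkx2.9*LacZ/LacZ. The 0 came from library 7, where 3 reads, the limit that a count of 0 allows, equal 7.76 normalized counts (the two-sided Poisson interval drawn for it ends at 9.54). The fold changes turn on that library: *Nkx2.9*LacZ/+ against *Nkx2.9*+/+ had a log2 fold change of 1.34 (95% interval −0.31 to 2.99) with it and 0.17 without it, and *Nkx2.9*LacZ/LacZ against *Nkx2.9*+/+ had 0.79 (−0.86 to 2.44) with it and −0.38 without it. With all libraries the unadjusted limma p of *Msx1* was 0.104 to 0.491 over the comparisons of genotypes, and these rest on few reads.

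**Figure D4:**
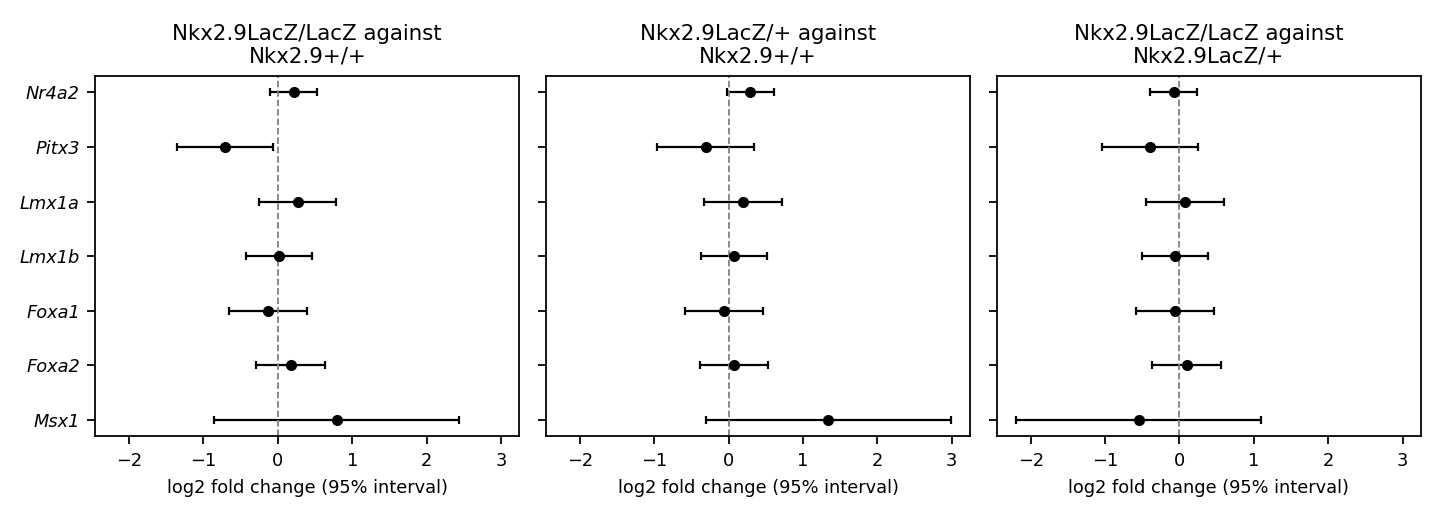
Log2 fold changes of the 7 factors with 95% intervals (limma, 3 libraries per genotype) in the 3 comparisons of genotypes, on log2(normalized count + 1). Dashed lines mark no difference. The interval of *Pitx3* in *Nkx2.9*LacZ/LacZ against *Nkx2.9*+/+, −1.36 to −0.06, is the only one that leaves out 0, and *Msx1* has the widest intervals.

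Between homozygous and wild-type libraries the median log2 fold change of the 7 factors was 0.17, beside 0.01 for all genes tested. In *Nkx2.9*LacZ/+ against *Nkx2.9*+/+, 0 of 7 factors had an unadjusted limma p under 0.05 (2.78% of all genes did), and the groups of *Pitx3* (lower) and *Msx1* (higher) did not overlap, as for 6.91% of all genes (3.51% lower and 3.4% higher). Without library 8, *Nr4a2* (0.42, unadjusted p = 0.0179) and *Msx1* (1.93, unadjusted p = 0.0349) passed there. *Nr4a2* also passed without library 5 (0.38, unadjusted p = 0.0333), and *Msx1* also without library 9 (1.92, unadjusted p = 0.0381). Between the homozygous and the heterozygous libraries, 0 of 7 factors had such a p (2.64% of all genes) and all 7 overlapped (8.71% of all genes did not). Both mutant genotypes were set against the same wild-type libraries.

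The factors were also correlated with each other and with *Th*, the rate-limiting enzyme of dopamine synthesis, over the 9 libraries. None of 28 pairs passed after adjustment (smallest adjusted exact permutation p = 0.334). *Nr4a2* and *Lmx1a* had the highest Pearson r, 0.71 (exact permutation p = 0.0352, Spearman rho 0.65, p = 0.0666), which was 0.77 without the 2 libraries with the most extreme *Nr4a2* and 0.71 within genotypes. *Nr4a2* and *Msx1* had r = 0.68 (exact permutation p = 0.0326, Spearman rho 0.63, p = 0.076), which was 0.36 without libraries 7 and 9. *Lmx1b* and *Th* had r = 0.66 (exact permutation p = 0.0358, Spearman rho 0.55, p = 0.133), which was 0.41 without libraries 4 and 7. *Pitx3* and *Th* had r = 0.19 (exact permutation p = 0.658, Spearman rho −0.12, p = 0.776).

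Genes whose pattern over the 9 libraries was most like each factor were ranked by Pearson r on log2(normalized count + 1) among 12489 genes (12490 for *Msx1*) with a mean of at least 20, as a description without a test. For *Pitx3* these were *Vstm2l* (r = 0.94), *4933407L21Rik* (0.93) and *Lmf2* (0.91). The nearest gene was *D2hgdh* (0.96) for *Nr4a2*, *Gm20735* (0.93) for *Lmx1a*, *Ftl1* (0.96) for *Lmx1b*, *Stn1* (0.96) for *Foxa1*, *Stxbp2* (0.96) for *Foxa2* and *Slc22a5* (0.98) for *Msx1*. No member of the 7 was among the 3 genes nearest to another, where *Msx1*, with a mean under 20, could not appear. With 3 places among so many genes, this does not show whether the factors varied together.

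Among other genes of the mdDA pathway, *Gch1*, which makes the cofactor of *Th*, had 44.0, 23.2 and 33.9 normalized counts in *Nkx2.9*+/+, 13.0, 16.2 and 15.5 in *Nkx2.9*LacZ/+ and 21.8, 17.4 and 10.3 in *Nkx2.9*LacZ/LacZ. All 6 mutant libraries lay below the wild-type ones, with log2 fold changes of −1.08 (unadjusted p = 0.00927, limma) in *Nkx2.9*LacZ/+ and −1.0 (unadjusted p = 0.0148) in *Nkx2.9*LacZ/LacZ and an adjusted p of 1 in both. The unadjusted p of the latter was over 0.05 without library 3 (−0.71) or 7 (−0.79). *Gch1* was the only one of 8 genes of dopamine synthesis and transport with an unadjusted p under 0.05. The dopamine transporter *Slc6a3*, also called *Dat*, had log2 fold changes of −0.27 (95% interval −0.73 to 0.18) in *Nkx2.9*LacZ/LacZ and 0.10 (−0.36 to 0.55) in *Nkx2.9*LacZ/+. In *Nkx2.9*LacZ/LacZ against *Nkx2.9*LacZ/+ it had −0.37 (−0.83 to 0.08, unadjusted p = 0.102, limma). These 2 groups did not overlap, as for 8.71% of all genes. Against *Nkx2.9*+/+, *Th* had 0.25 (−0.46 to 0.96) in *Nkx2.9*LacZ/LacZ and 0.53 (−0.18 to 1.23) in *Nkx2.9*LacZ/+. Library 4 had 187 normalized counts of *Th* and the other 8 had 51.2 to 100.5. The second *Th* value was 0.034 without library 4 and 0.84 without library 5 (unadjusted p = 0.0246, limma), and its unadjusted p was also under 0.05 with DESeq2 (0.67).

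Of 6 other mdDA factors, *En1*, which keeps these neurons alive, was the only one with an unadjusted limma p under 0.05 in *Nkx2.9*LacZ/LacZ against *Nkx2.9*+/+ (−0.60, unadjusted p = 0.0277, adjusted p = 1), and its unadjusted p was over 0.05 in 6 of 19 alternatives, those without library 1, 7 or 9 among them. The groups of *En1* and of its relative *En2* (−0.44, unadjusted p = 0.0502) did not overlap, as for 9.52% of all genes. An unadjusted limma p under 0.05 was found for 2.6% of all genes. The signs of both rest on labels that are in doubt. None of 6 tested genes of floor plate and midline signals and none of 4 tested paralogs of the factors passed. *Wnt1*, with 30 reads in all, was under the minimum for testing. The paralogs *Foxa3*, *Msx2* and *Msx3* had at most 2 reads in a library.

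Markers of other cell types were measured in the same comparison, and none passed after adjustment over all genes (adjusted p = 1 for each gene named), where 2.6% of all genes had an unadjusted limma p under 0.05. Of 4 serotonergic genes, *Tph2* (−1.75) and *Slc6a4* (−1.07) had lower levels in libraries 1 to 3, labelled *Nkx2.9*LacZ/LacZ, with an unadjusted limma p under 0.05, as did *Kl* (−1.25) of 3 roof plate and choroid plexus genes and *Foxc1* (−0.99) of 5 meningeal genes, while *Neurod6* (0.72) of 3 forebrain genes was higher. The summed level was 499 to 590 in *Nkx2.9*LacZ/LacZ against 514 to 642 in *Nkx2.9*+/+ for serotonergic genes, of which *Gata3*, also expressed by other neurons, held most (508 against 526 on average), 182 to 282 against 237 to 343 for meninges, 17.3 to 26.6 against 26.7 to 69.8 for roof plate and choroid plexus and 119 to 186 against 119 to 156 for forebrain. None of 4 genes of the subthalamic and mammillary area, 5 of other ventral midbrain neurons and 6 of blood had such a p. In *Nkx2.9*LacZ/+ against *Nkx2.9*+/+, *Gch1* and the meningeal *Col1a1* (−0.77) were the tested genes of these lists with such a p, and in *Nkx2.9*LacZ/LacZ against *Nkx2.9*LacZ/+ they were *Tph2* (−1.01) and *Foxc1* (−0.78), aside from *Xist* and Y-linked genes. In the last comparison *Tph2* lost its unadjusted p under 0.05 in 10 of 18 alternatives (its fold change was −0.58 without library 3) and *Foxc1* in 7 of 18. Genes with a mean under 5 were not tested above. Without this minimum, 1132 to 1137 of 31636 genes had such a p in each comparison. Among them were *Tbr1* (2.01) in *Nkx2.9*LacZ/LacZ and *Wnt1* (−1.84) in *Nkx2.9*LacZ/+, both against *Nkx2.9*+/+. *Gdf7* (1.47) and *Hbb-bh1* (1.90) had it in *Nkx2.9*LacZ/LacZ against *Nkx2.9*LacZ/+. The signs rest on labels that are in doubt, and the part of these tissues in the *Pitx3* result was not tested.

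**Figure D5:**
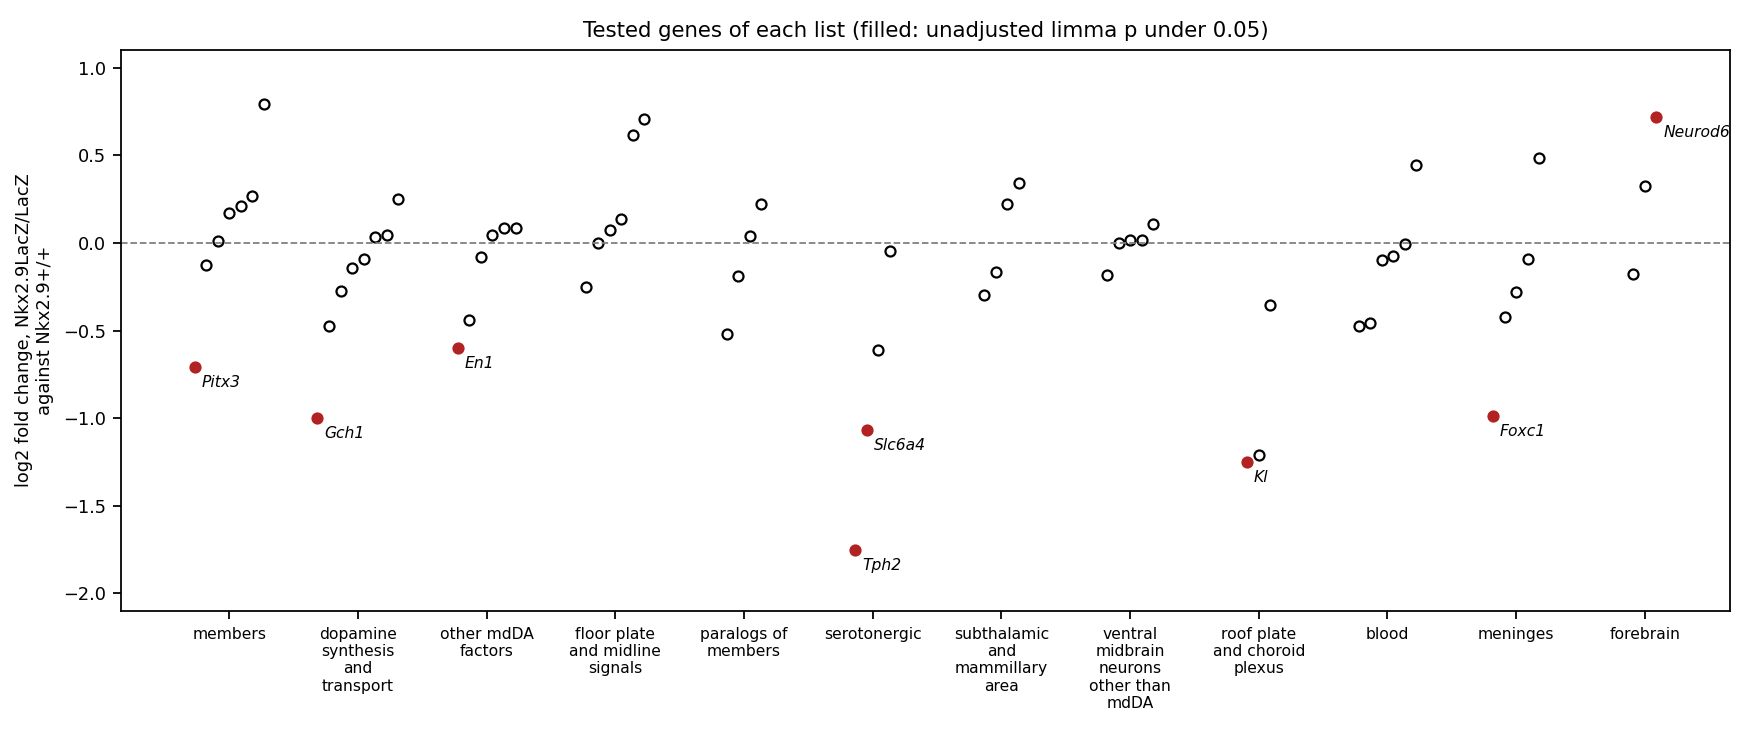
Log2 fold changes in *Nkx2.9*LacZ/LacZ against *Nkx2.9*+/+ for the 7 factors and the tested genes of 11 other lists, with 3 libraries per genotype. Each point is a gene, and filled, named points have an unadjusted limma p under 0.05. *Pitx3* at −0.71 is the only filled point among the factors, and *Tph2* at −1.75 is the lowest point shown.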

How the data were processed

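According to the methods and the submitters' processing notes, the authors depleted ribosomal RNA, aligned 100-bp paired reads to mm10 with HISAT2 and counted them with featureCounts, while the sample labels name an mRNA protocol. Versions, annotation and strand setting are not given in the sources used here. The deposited signal is a normalized count, the read count divided by a DESeq2 size factor of its library. The authors' comparison tables (log2 fold changes, standard errors, Wald statistics, p-values) were not used. Whole reads were recovered for 100% of values above 0 (tolerance 1e-06 reads).

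Genotypes were compared with limma 3.58.1 (lmFit, eBayes with trend, R 4.3.3) on log2(normalized count + 1) of the 16993 genes with a mean of at least 5, all 9 libraries in one fit, with two-sided p adjusted by Benjamini-Hochberg over these genes. All 7 factors passed this minimum. Exact permutation tests over libraries, a sign-flip test of log2 levels per kb (0.1 added) and GENCODE M21 exon lengths were also used (scipy 1.17.1). P-values measure the spread between pooled libraries. Alternatives were pseudocounts of 0.5 and 5, no minimum or a minimum of 20, only the genotypes compared, upper-quartile scaling, no trend, edgeR 4.0.16 with TMM and DESeq2 1.42.0 on the recovered reads, log2 *Xist* as a covariate and leaving out each library. The trend test was to be adjusted over the 7 factors alone and is given unadjusted and adjusted over all genes instead. The fits were tested on simulated data.

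The factors and the 12 marker lists were chosen with earlier results of these data known. The text names the 7 factors, *Nkx2-9*, the 3 genes most like each factor (for 6 of them, the first only) and, from the lists, genes with an unadjusted p under 0.05 in a comparison and a few others for their level. *En2*, *Elovl3* and *Slc6a3* were named after their values were seen. Depth was 1692963 to 5942192 reads per library, which limits *Pitx3* and *Msx1* most.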

Additional observations from a re-analysis of the deposited data

How the results depend on the processing

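No paired analysis was possible because the columns carry no replicate numbers. *Pitx3* kept its sign in *Nkx2.9*LacZ/LacZ against *Nkx2.9*+/+ under all 19 alternatives, and its unadjusted p missed 0.05 in 6. The count of factors under 0.05 in that comparison, 1 as reported, was 0 with upper-quartile scaling and with DESeq2 and ranged from 0 to 1 when each library was left out. Without library 8 that 1 was *Nr4a2* (0.34, unadjusted p = 0.0463, limma) and not *Pitx3*. Leaving out libraries gave 0 to 2 factors in *Nkx2.9*LacZ/+ against *Nkx2.9*+/+, 0 to 1 for any difference (1 only without library 3 or 5), 0 to 1 for the trend and 0 to 1 of the ratios. *Pitx3* lost the trend without library 1, 2, 7, 8 or 9, with exact permutation p from 0.0518 to 0.0732.

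Genes with an unadjusted p under 0.05 in *Nkx2.9*LacZ/LacZ against *Nkx2.9*+/+, 441 as reported, numbered 1135 without a minimum, 263 with a minimum of 20 and 283 to 835 without one library. In *Nkx2.9*LacZ/+ against *Nkx2.9*+/+ (473) they numbered 1137, 242 and 376 to 936, and 283 with only the genotypes compared, 293 with upper-quartile scaling, 264 with DESeq2 (1 gene after adjustment) and 298 with the *Xist* covariate. In *Nkx2.9*LacZ/LacZ against *Nkx2.9*LacZ/+ (449) they numbered 1132, 288 and 293 to 741. No gene passed after adjustment in limma or edgeR, where edgeR had 421, 372 and 451 genes with an unadjusted p under 0.05.

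The signs that turned were all of differences whose reported p was over 0.05. In *Nkx2.9*LacZ/LacZ against *Nkx2.9*+/+, *Msx1* turned to −0.049 with edgeR and −0.0059 with DESeq2 and *Lmx1b* to −0.079 with the *Xist* covariate, and leaving out libraries gave −0.12 to 0.16 for *Lmx1b*, −0.37 to 0.17 for *Foxa1* and −0.38 to 1.38 for *Msx1*. In *Nkx2.9*LacZ/+ against *Nkx2.9*+/+, *Foxa1* turned to 0.0070 with the *Xist* covariate, and leaving out libraries gave −0.24 to 0.090 for *Foxa1*, −0.12 to 0.26 for *Lmx1b*, −0.15 to 0.22 for *Foxa2* and −0.54 to 0.080 for *En1*. In *Nkx2.9*LacZ/LacZ against *Nkx2.9*LacZ/+, upper-quartile scaling gave 0.037 for *Nr4a2*, 0.051 for *Lmx1b* and 0.049 for *Foxa1*, edgeR 0.022 and DESeq2 0.0088 for *Foxa1*, and the *Xist* covariate −0.087 for *Lmx1a* and 0.22 for *Msx1*. Leaving out libraries there gave −0.18 to 0.28 for *Lmx1a*, −0.24 to 0.13 for *Lmx1b*, −0.31 to 0.24 for *Foxa1*, −0.047 to 0.32 for *Foxa2*, −0.14 to 0.37 for *Gch1* and −0.59 to 0.22 for *Th*. The trend per allele ranged from −0.050 to 0.070 for *Lmx1b*, −0.18 to 0.075 for *Foxa1* and −0.22 to 0.60 for *Msx1*. The cause of these moves was not tested.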
